A study of Mus musculus with 6 samples.

Results

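The translation initiation and elongation factors are the soluble proteins that bring ribosomes to messenger RNA and move them along it. They were taken here as the probe sets whose single annotated gene symbol begins with Eif1 to Eif6 or with Eef1 or Eef2, leaving out the eIF2 kinases (Eif2ak) and symbols beginning Eef2k. The rule found 58 genes among the 20239 named genes of the array, each with 1 probe set, and the 4E-binding proteins are among them. Expression was measured with 1-colour arrays in total RNA of isolated pericytes, the mural cells of small vessels, from mice of C57BL/6 background. One group of 3 samples was kept for 5 days with 100 ng/ml PDGF-BB, the B-chain dimer of platelet-derived growth factor, and the other group of 3 samples served as control. The labels name no agent for the control, no sex or age of the mice, and do not say whether the 3 samples of a group were separate isolations or cultures. The p-values therefore reflect only sample-to-sample scatter, part of which could be technical.

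The deposited values are on the log2 scale, so a difference of 1 is a doubling of signal. A gene was called when limma's moderated test gave a Benjamini-Hochberg adjusted p under 0.05 over all 20239 named genes. The 90th percentile of 17 markers of cell types taken as absent, a log2 value of 7.91, served as the background level. Array medians lay between 8.43 and 8.46, and arrays of a group correlated across genes at 0.994 to 0.996. Of 12 pericyte and mural markers 7 lay above the background level in at least 1 group, among them Pdgfrb with means of 12.98 and 12.85. Rgs5, Des, Kcnj8, Abcc9 and Vtn lay under it in both groups. Some markers themselves changed in limma: the mural Acta2 (log2 change -1.07) and Cd248 (-0.33) fell and Anpep (0.88) rose, and with the replicate block Cspg4 (0.91) and Mcam (-0.52) passed too. Of 6 fibroblast markers 5 lay above the level, among them Dcn and Pdgfra, and 2 rose, Lum (log2 change 2.91) and Dpt (0.72). Of the 9 endothelial markers 0 reached the level, and of 6 leukocyte markers Cd68 and Cd3e did, of which Cd68 fell (-0.42). Cd3e is itself among the 17 markers that set the level, some of which must lie above their own 90th percentile. The part of these shifts in the results below was not tested. In such bulk RNA, fewer cells of a type and less RNA per cell cannot be told apart.

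As background, initiation begins when eIF2 carries the initiator tRNA to the small ribosomal subunit with the help of eIF1, eIF1A, eIF3 and eIF5. The messenger arrives through eIF4F, made of the cap-binding eIF4E, the scaffold eIF4G and the helicase eIF4A. eIF2B recharges eIF2 with GTP after each round, and phosphorylated eIF2 blocks it. The 4E-binding proteins hold eIF4E away from eIF4G until mTORC1 phosphorylates them, and growth factors act on translation largely through that kinase. In elongation, eEF1A delivers tRNAs, the eEF1B proteins recharge eEF1A, and eEF2 moves the ribosome forward until its kinase eEF2K stops it.

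PDGF-BB was accompanied by small changes in both directions among these factors. Of the 58 genes 9 rose and 5 fell. The largest increase was that of Eef1e1 (1.61-fold) and the largest decrease that of Eif4a2 (1.52-fold lower), and no factor changed 2-fold. The 14 called genes are 24.1% of the factors, against 21.5% of all named genes. By direction, 15.5% of the factors rose against 10.1% of all genes, and 8.62% fell against 11.4%. All 14 called factors had both group means above the background level, as did 53 of the 58, and 26.4% of those 53 were called. Among all 11271 genes that bright, 32.7% were called, with 15.9% higher and 16.8% lower. In this fit, without a block, the share of called factors is thus near the background, and below it among bright genes.

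The median log2 change over the 58 factors was 0.12, against -0.02 over all genes, and 38 factors had a change above 0. The median differences between the arrays numbered 1, 2 and 3 were 0.01, 0.11 and 0.14. In 36 factors the 3 PDGF-BB arrays did not overlap the 3 control arrays, which is 62.1% against 37.6% of all genes. All 36 were among the 53 factors with both means above the background level (67.9%, against 51.4% of all genes that bright). With the replicate number as a block, 12 factors rose and 8 fell, all 14 called genes among them. In that fit 10.9% of all named genes rose and 12.5% fell. The count of higher factors was 5 when either the third control array or the second PDGF-BB array was omitted, and 4 when the third PDGF-BB array was. In these fits 7.11%, 7.02% and 7.4% of all named genes rose, against 10.1% with all arrays. The count of lower factors was 3 when either the second control array or the first PDGF-BB array was omitted. There 7.91% and 7.49% of all named genes fell, against 11.4%. Over all 6 omissions 4 to 8 factors rose and 3 to 5 fell. Eef1e1, Eif4a2, Eif6, Eif3b and Eif4b kept their calls under all 13 alternative settings.

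**Figure D1:**
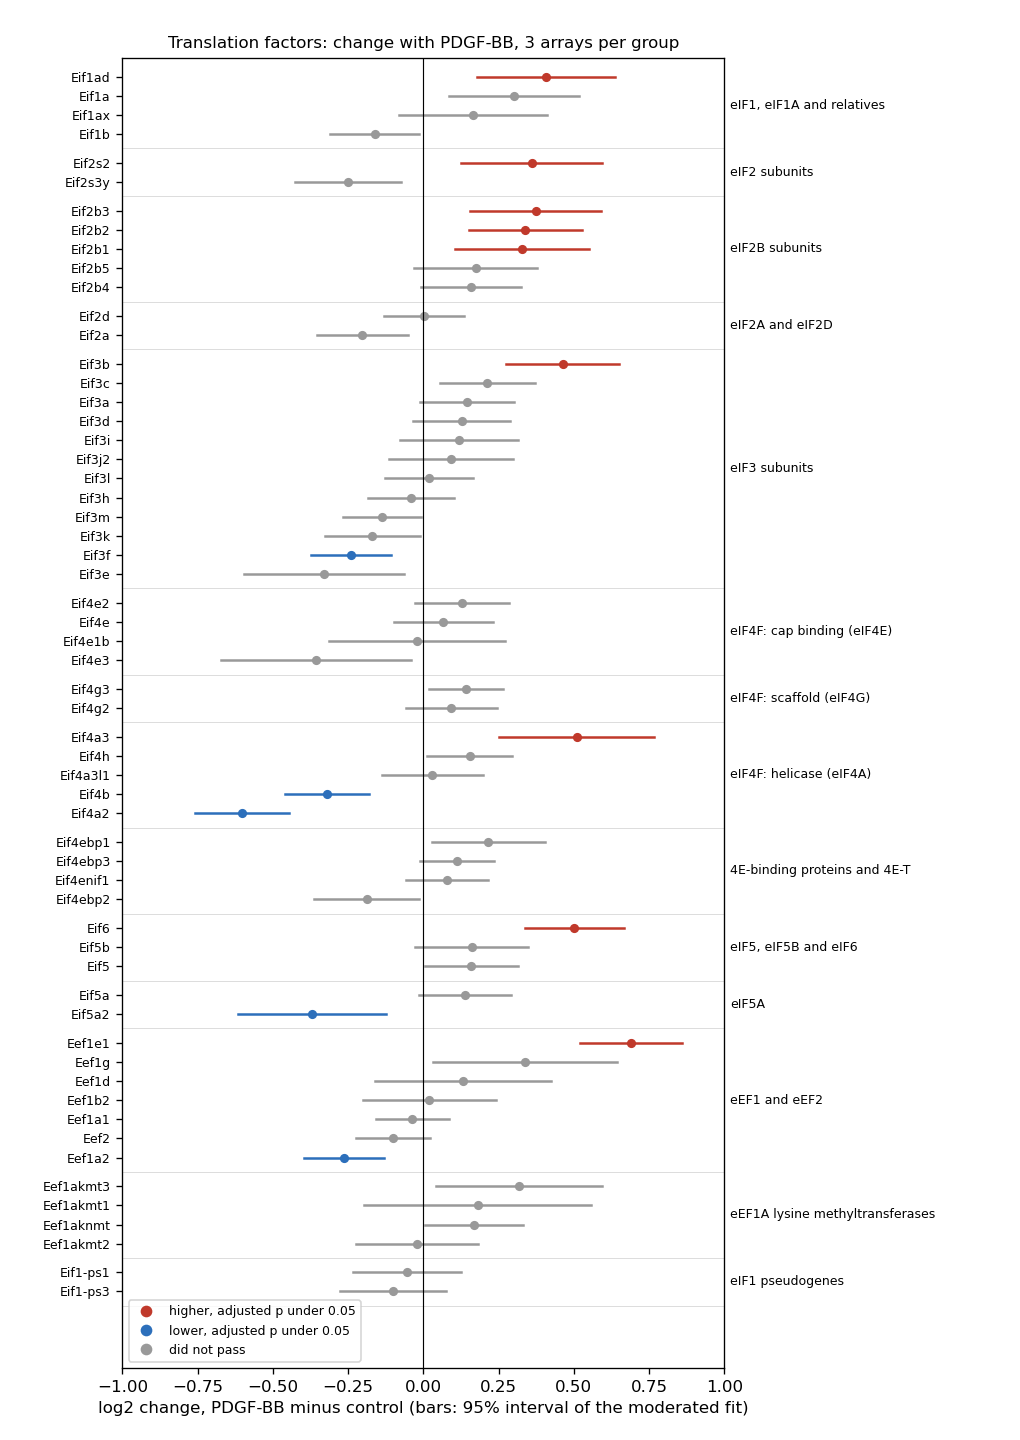
Log2 change (PDGF-BB minus control, x axis) of each of the 58 translation factors, grouped by complex (y axis), with dots for the estimate and bars for the 95% interval of the moderated fit over 3 arrays per group. The 9 red dots passed the test as higher and the 5 blue ones as lower, and changes run from -0.60 (Eif4a2) to 0.69 (Eef1e1).

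RefSeq's table of promoters (GRCm38.p6) held 40 of the 58 factors, 12 of the 14 called ones among them. The bases from 250 before the annotated start up to the start were searched on both strands for the E-box CACGTG, bound by Myc and its relatives, the ETS core CCGGAAG, the cAMP response element TGACGTCA and the core TGATGCAA of amino acid response elements. The windows below are those of the called factors with any match. They are shown because they carry the matches, which are in capitals, in 1 factor that rose and 2 that fell. No matches overlap in them, and letters in a window are not evidence of binding.
Eif1ad, which rose, chr19:5366563-5366812, plus strand, ETS core on the reverse strand: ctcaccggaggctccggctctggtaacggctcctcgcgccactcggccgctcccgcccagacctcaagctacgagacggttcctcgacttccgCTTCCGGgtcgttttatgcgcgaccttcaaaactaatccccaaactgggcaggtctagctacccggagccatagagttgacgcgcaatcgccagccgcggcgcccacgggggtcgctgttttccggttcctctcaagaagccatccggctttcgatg
Eif3f, which fell, chr7:108934165-108934414, plus strand, E-box: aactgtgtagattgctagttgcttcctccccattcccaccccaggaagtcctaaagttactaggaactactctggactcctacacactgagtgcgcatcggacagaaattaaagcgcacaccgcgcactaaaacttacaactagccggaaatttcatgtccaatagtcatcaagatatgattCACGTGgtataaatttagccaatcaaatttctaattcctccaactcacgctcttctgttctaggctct
Eif5a2, which fell, chr3:28781027-28781276, plus strand, 2 E-boxes and 2 ETS cores: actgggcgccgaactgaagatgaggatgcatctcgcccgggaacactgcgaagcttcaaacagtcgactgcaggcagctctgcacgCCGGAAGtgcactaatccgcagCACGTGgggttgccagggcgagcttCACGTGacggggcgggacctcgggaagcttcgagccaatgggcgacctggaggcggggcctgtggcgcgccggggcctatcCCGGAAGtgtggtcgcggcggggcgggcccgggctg

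The E-box was found before 9 of the 40 factors (22.5%), against 8.08% of the 15651 array genes in the table and 6.02% of all 32851 windows. An ETS core stood before 11 of the 40 (27.5%), against 10.6% of array genes and 6.91% of windows. The cAMP response element (2.29% of array genes, 1.55% of windows) and the amino acid response core (0.76% and 0.791%) were in no factor's window. Of the 7 factors in the table that rose, 0 held an E-box and 1 an ETS core. Among the 5 that fell, 2 held an E-box and 1 an ETS core. Most of the 40 factors did not pass the test, so most matches would stand before such factors whatever the motif. A gene with several annotated starts was counted once if any of its windows matched. The shares of windows count each start by itself, so the share of array genes is the like measure. Those array genes include dim ones, however, and were not matched to the factors in signal or base composition. Whether the higher shares are particular to the factors was not tested.

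**Figure D2:**
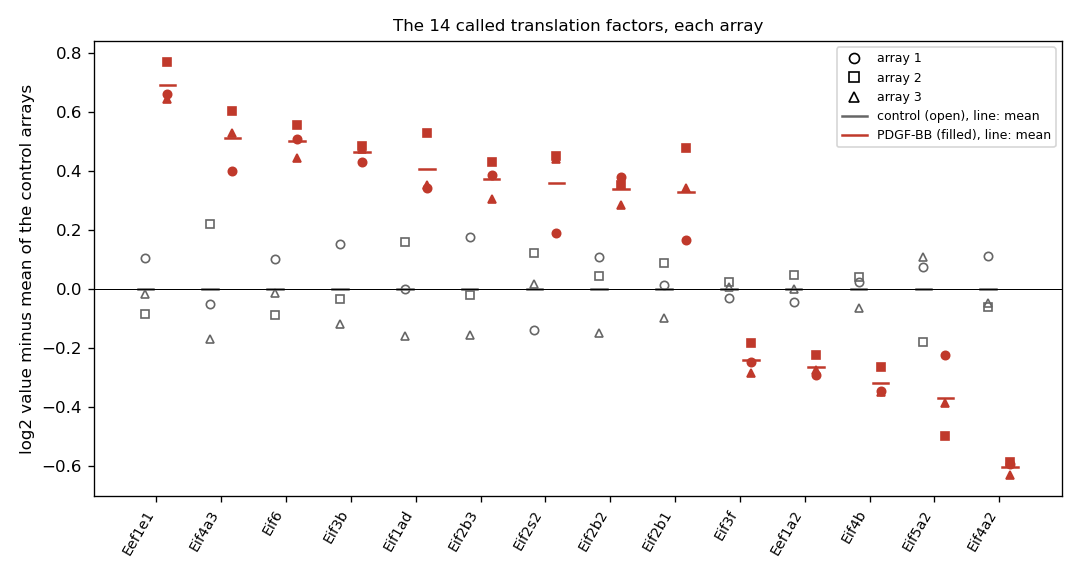
Log2 value of each array minus the mean of the control arrays (y axis) for the 14 called factors (x axis), with open grey symbols for control, filled red symbols for PDGF-BB, 1 symbol shape for each array number and lines for group means. None of the 14 shows overlap between the groups, from Eef1e1 at the upper end to Eif4a2 at the lower. They were called on these same arrays, so the lack of overlap adds no support to the calls.

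eIF2B, the exchange factor that returns eIF2 to its GTP-bound form, had 3 of its 5 subunits called (60%, against 21.5% of all genes and 32.7% of bright ones), all higher, a share that the eIF4A group with its cofactors equalled with mixed directions. Eif2b2 (β subunit, Entrez gene 217715) measured 10.29, 10.23 and 10.03 in the control arrays and 10.56, 10.54 and 10.47 with PDGF-BB. All PDGF-BB arrays lay above all control arrays, and the gene rose 1.26-fold (log2 change 0.34, SE 0.079, adjusted p = 0.024, limma). For Eif2b3 (γ subunit of the catalytic part, Entrez gene 108067) the values were 9.75, 9.56 and 9.42 in control and 9.96, 10.01 and 9.88 with PDGF-BB, a 1.30-fold rise (adjusted p = 0.029, limma). Eif2b1 (α subunit, which senses phosphorylated eIF2, Entrez gene 209354) gave 10.02, 10.10 and 9.91 against 10.18, 10.49 and 10.35, also with no overlap, and rose 1.26-fold (adjusted p = 0.048, limma). The other two subunits leaned the same way without passing: Eif2b4 (δ) had a log2 change of 0.16 (95% interval -0.01 to 0.32) and the catalytic ε subunit Eif2b5 one of 0.17 (-0.03 to 0.38).

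The eIF2B increases were uneven between array numbers, with median differences of 0.15, 0.31 and 0.43 for numbers 1, 2 and 3. Each call rested on several arrays. For Eif2b1 it was lost on omitting any 1 control array, or the second or the third PDGF-BB array (adjusted p = 0.069 to 0.14, limma) and with an intensity trend in the variance (0.059). Eif2b2 lost it on dropping the second control array (0.053), the first PDGF-BB array (0.081) or the second (0.074). For Eif2b3 this happened on dropping the second or the third control array, or any 1 PDGF-BB array (0.055 to 0.093).

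eIF2 itself had 2 subunits with a named probe set, and the α subunit that carries the regulatory phosphorylation site is not analysed here. Eif2s2 (β subunit, Entrez gene 67204) measured 9.81, 10.07 and 9.97 in control and 10.14, 10.40 and 10.39 with PDGF-BB. The groups did not overlap, though by a small gap, and it rose 1.28-fold (log2 change 0.36, SE 0.099, adjusted p = 0.042, limma). Omitting the first (0.0996) or the third (0.097) control array ended that call, as did omitting the second (0.13) or the third (0.12) PDGF-BB array and an intensity trend (0.0501). Eif2s3y, the Y-linked copy of the γ subunit (Entrez gene 26908), ran the opposite way, at 10.92, 11.06 and 10.90 in control and 10.66, 10.82 and 10.64 with PDGF-BB. Its log2 change was -0.25 (95% interval -0.43 to -0.07, adjusted p = 0.055, limma), and it passed once array numbers were blocked (0.035), after repeated quantile normalization (0.035), when dimmer genes under the 50th percentile were left out (0.044) and on omitting PDGF-BB array 2 (0.0498).

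Of the other Y-linked genes, only a short list was looked up, and the 2 measured, Kdm5d and Uty, were lower too. Kdm5d, a histone demethylase, averaged 9.47 ± 0.06 under PDGF-BB and 9.96 ± 0.05 in control (SD, n = 3 per group), 1.40-fold lower by limma (adjusted p = 0.0027). Uty, a relative of the demethylase Kdm6a, was 1.15-fold lower (adjusted p = 0.0295, limma). Uty lost its call with the block (0.066), with an intensity trend (0.069) and without any 1 array (0.058 to 0.092). Xist, the RNA of the inactive X chromosome, lay under the background level in both groups (6.06 and 6.12). The part of the Y-linked shift in the Eif2s3y values was not tested. eIF2A and eIF2D, which can bring initiator tRNA without eIF2, did not pass, with log2 changes of -0.20 (95% interval -0.35 to -0.05) for Eif2a and 0.00 (-0.13 to 0.14) for Eif2d. For Eif2a the adjusted p in limma was 0.066 with all arrays, 0.039 without control array 3 and 0.024 after repeated quantile normalization.

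Of the 4 genes named for eIF1 and eIF1A, proteins that act in start codon scanning, and their relatives, Eif1ad passed. Eif1ad, which encodes a protein with an eIF1A-like domain (Entrez gene 69860), measured 10.55, 10.71 and 10.39 in control and 10.89, 11.08 and 10.90 with PDGF-BB. The lowest PDGF-BB array lay above the highest control array, and the gene rose 1.33-fold (log2 change 0.41, SE 0.097, adjusted p = 0.0255, limma). The adjusted p was 0.056 to 0.081 if control array 1, control array 3 or any 1 PDGF-BB array was omitted. The estimate for Eif1a was 0.30 on the log2 scale (0.08 to 0.52, adjusted p = 0.059, limma), which passed with the block (0.039), without genes under the 50th percentile (0.043) and without PDGF-BB array 2 (0.019). Its X-linked relative Eif1ax had one of 0.16 (-0.08 to 0.41), and Eif1b, a close relative of eIF1, one of -0.16 (-0.31 to -0.01), past the threshold after repeated quantile normalization (0.049). Eif1a and Eif1ax are near copies of each other, and the probes were not checked for shared sequence.

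eIF3, the large scaffold that holds the small ribosomal subunit, had 12 subunits with a named probe set, of which 1 rose and 1 fell. That is 16.7% called, against 21.5% of all genes and 32.7% of bright ones. Eif3b (Entrez gene 27979), around which the core of the complex is built, measured 12.16, 11.98 and 11.89 in control and 12.44, 12.50 and 12.48 with PDGF-BB. The PDGF-BB arrays were close to each other and all above the control arrays, and the gene rose 1.38-fold (log2 change 0.46, SE 0.079, adjusted p = 0.0075, limma). Eif3f (Entrez gene 66085), a subunit with an MPN domain, gave 13.10, 13.16 and 13.14 against 12.88, 12.95 and 12.84, with no overlap, and was 1.18-fold lower (log2 change -0.24, SE 0.056, adjusted p = 0.024, limma). The adjusted p of Eif3f was 0.067 to 0.074 when the second or the third control array, or the first or the third PDGF-BB array, was dropped.

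The remaining eIF3 subunits fell into a pattern that was noticed after their values were seen. The 5 measured subunits with a counterpart in budding yeast, Eif3a, Eif3b, Eif3c, Eif3i and Eif3j2, all had changes above 0, with a median of 0.14 and a range of 0.09 to 0.46. Of the other 7, Eif3e, Eif3f, Eif3h, Eif3k and Eif3m had changes below 0, while Eif3d (0.13) and Eif3l (0.02) had not, and their median was -0.14. The signs of these 12 held under all alternatives except for Eif3l, which turned in 1. All alternatives reuse the same arrays, and the block, the intensity trend and the gene filters leave the estimates unchanged. The held signs are therefore no test of the pattern. Eif3e had the lowest change, -0.33, with values of 12.11, 12.49 and 12.19 in control and 11.85, 12.06 and 11.89 with PDGF-BB (adjusted p = 0.084, limma), and it passed with the block (0.020). Eif3c had a change of 0.21 (adjusted p = 0.066) and passed without control array 1 (0.039) and with each array centred on its median (0.046). Eif3a measured 11.69, 11.76 and 11.58 against 11.79, 11.87 and 11.81 (adjusted p = 0.19), a difference that does not pass although the groups do not overlap. Eif3j2 has a near-identical copy, Eif3j1, which is not analysed here.

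**Figure D3:**
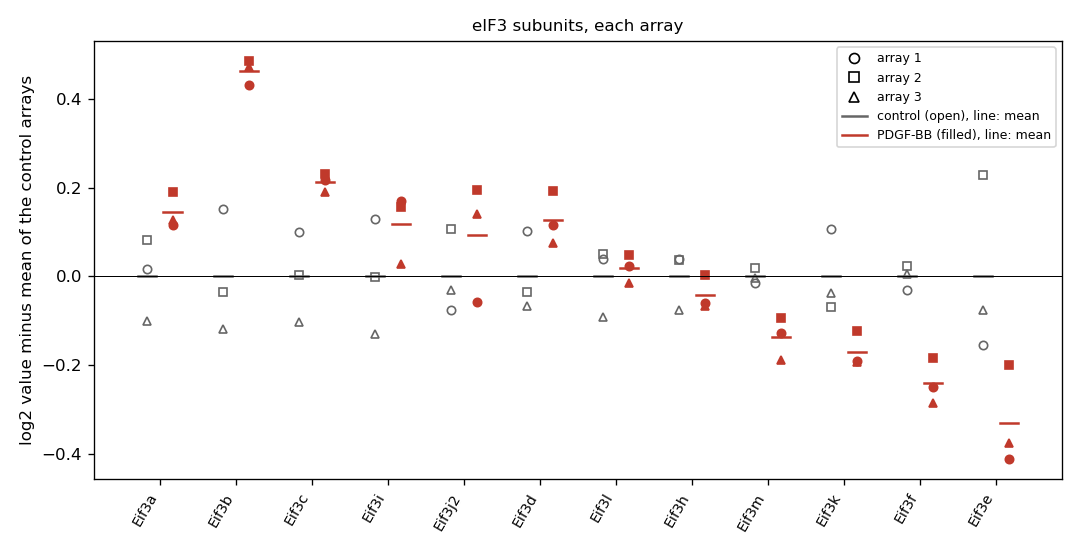
Log2 value of each array minus the mean of the control arrays (y axis) for the 12 measured eIF3 subunits (x axis), with symbols as in the plot of called factors and lines for group means. Eif3b stands highest with a mean change of 0.46, Eif3e lowest with -0.33, and subunits with a yeast counterpart are placed at the left.

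In eIF4F and its cofactors, 1 gene of the helicase family rose and the helicase Eif4a2 fell together with its stimulator. Eif4a2 (Entrez gene 13682), the second isoform of the RNA helicase, measured 11.62, 11.45 and 11.46 in control and 10.92, 10.92 and 10.88 with PDGF-BB. A gap of over 0.5 log2 units lay between the groups, and it was 1.52-fold lower (log2 change -0.60, SE 0.066, adjusted p = 0.0019, limma). Eif4b (Entrez gene 75705), an RNA-binding protein that boosts the helicase and is phosphorylated by S6 kinase, gave 12.84, 12.85 and 12.75 against 12.47, 12.55 and 12.46, and was 1.25-fold lower (adjusted p = 0.010, limma). Eif4h, a related cofactor, differed by less (0.15 on the log2 scale, 0.01 to 0.30) and did not pass. Eif4a3 (Entrez gene 192170), the helicase of the exon junction complex rather than of initiation, gave 9.82, 10.09 and 9.70 against 10.27, 10.47 and 10.40 and rose 1.42-fold (adjusted p = 0.017, limma). The call of Eif4a3 was lost without PDGF-BB array 2 (0.059) or 3 (0.056). The principal helicase Eif4a1 is not analysed here, and Eif4a3l1, a copy of Eif4a3, lay under the background level.

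The cap-binding proteins and the scaffolds measured did not pass. Eif4e (Entrez gene 13684), the cap-binding protein whose supply limits initiation, measured 8.52, 8.67 and 8.66 in control and 8.70, 8.61 and 8.75 with PDGF-BB. The groups overlapped, and the log2 change was 0.07 with a 95% interval of -0.10 to 0.23. Eif4e2, the repressive cap-binding relative, had a change of 0.13 (-0.03 to 0.29). Eif4e3 had one of -0.36 (-0.67 to -0.04, adjusted p = 0.11, limma), and it passed with the block (0.015) and without PDGF-BB array 3 (0.047). Eif4e1b lay under the background level in both groups. Of the scaffolds, Eif4g3 had a change of 0.14 (adjusted p = 0.10) and Eif4g2, which lacks the eIF4E site, one of 0.09 (adjusted p = 0.38), and Eif4g1 is not analysed here.

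None of the 3 4E-binding proteins passed limma's test, nor did the eIF4E transporter Eif4enif1. Before adjustment, the p of Eif4ebp1 (0.030) and Eif4ebp2 (0.038) lay under 0.05 in opposite directions. Eif4ebp1 (Entrez gene 13685) measured 12.47, 12.34 and 12.22 in control and 12.63, 12.58 and 12.48 with PDGF-BB. The groups just failed to overlap, and the log2 change was 0.22 (95% interval 0.03 to 0.40, adjusted p = 0.10, limma). Eif4ebp2 (Entrez gene 13688) gave 11.98, 11.87 and 12.04 against 11.76, 11.70 and 11.87, which overlap at 1 array, a change of -0.19 (-0.36 to -0.01, adjusted p = 0.13). Eif4ebp3 (Entrez gene 108112) gave 8.98, 9.02 and 9.05 against 9.11, 9.13 and 9.14, a change of 0.11 (-0.01 to 0.24, adjusted p = 0.19). Eif4enif1 had a change of 0.08 (-0.06 to 0.21). These are transcript levels, and the phosphorylation by which mTORC1 controls the proteins is not measured by the arrays.

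Eif6 rose, and the factors that act at subunit joining, Eif5 and Eif5b, did not pass. eIF6 (Entrez gene 16418) sits on the large subunit, is needed to make it and keeps it from joining too early. It measured 11.80, 11.61 and 11.68 in control and 12.20, 12.25 and 12.14 with PDGF-BB. Every PDGF-BB array stood well above the control arrays, and the rise was 1.42-fold (log2 change 0.50, SE 0.069, adjusted p = 0.0036, limma). Eif5, which triggers GTP hydrolysis by eIF2, had a change of 0.16 (95% interval 0.01 to 0.31) and Eif5b, the joining GTPase, one of 0.16 (-0.03 to 0.35).

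Of the eIF5A genes, whose products carry the amino acid hypusine and help ribosomes past difficult peptide bonds, Eif5a2 fell and Eif5a did not pass. Eif5a2 (Entrez gene 208691) measured 9.53, 9.27 and 9.56 in control and 9.23, 8.96 and 9.07 with PDGF-BB. The groups were separated by a narrow gap, and Eif5a2 was 1.29-fold lower (log2 change -0.37, SE 0.104, adjusted p = 0.045, limma). That call was lost on dropping the first or the third control array, or the second or the third PDGF-BB array (0.11 to 0.14). It was also lost with repeated quantile normalization (0.071), with arrays centred on their medians (0.056) and with an intensity trend (0.053). Eif5a (Entrez gene 276770) gave 9.30, 9.13 and 9.20 against 9.39, 9.36 and 9.31, a change of 0.14 (95% interval -0.01 to 0.29, adjusted p = 0.19).

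Among the 7 elongation factor genes 1 rose and 1 fell (28.6% called, against 21.5% of all genes and 32.7% of bright ones). Eef1e1 (Entrez gene 66143), a subunit of the multi-synthetase complex that is named for its likeness to eEF1, measured 10.64, 10.45 and 10.51 in control and 11.19, 11.30 and 11.18 with PDGF-BB. The gap between the groups exceeded the spread within either, and it rose 1.61-fold (log2 change 0.69, SE 0.072, adjusted p = 0.0017, limma). Eef1a2 (Entrez gene 13628), the tRNA-delivering isoform of neurons and muscle, gave 8.94, 9.03 and 8.99 against 8.70, 8.76 and 8.71 and was 1.20-fold lower (log2 change -0.26, SE 0.056, adjusted p = 0.0165, limma). Without control array 2 the adjusted p was 0.056, and without PDGF-BB array 1 it was 0.059.

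Eef1a1 (Entrez gene 13627), the general isoform, measured 14.02, 14.04 and 14.02 in control and 14.01, 14.01 and 13.96 with PDGF-BB. Its log2 change of -0.04 had a 95% interval of -0.16 to 0.09. These values lie close to the highest group mean of any gene, 14.18, and whether the probes were saturated was not tested. Eef2 (Entrez gene 13629), the translocase, gave 13.85, 13.85 and 13.86 against 13.72, 13.78 and 13.76, a change of -0.10 (-0.22 to 0.02, adjusted p = 0.24, limma). Of the eEF1B subunits that recharge eEF1A, Eef1g had a change of 0.34 (0.03 to 0.64, adjusted p = 0.12), which passed with the block (0.049) and without control array 1 (0.029). Eef1d and Eef1b2 had changes of 0.13 and 0.02. None of the 4 enzymes that methylate eEF1A passed limma's test with all arrays (2 had an unadjusted p under 0.05), and their changes ran from -0.02 (Eef1akmt2) to 0.32 (Eef1akmt3). Eef1akmt3, whose control mean lay under the background level, passed with the block (0.041) and without PDGF-BB array 2 (0.026). The eIF1 pseudogenes Eif1-ps1 and Eif1-ps3 lay under the background level in both groups.

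Some genes that act on these factors had larger changes than any factor. Of 12 genes around eIF2 phosphorylation 5 rose and 1 fell, 50% against 21.5% of all genes and 32.7% of bright ones. With the replicate block Dnajc3, an inhibitor of eIF2 kinases, lost its call (0.080) and Ddit3, the stress factor CHOP, passed (0.0048). Eif2ak2, the double-stranded RNA-activated eIF2 kinase PKR and an interferon-induced gene, measured 9.88, 10.33 and 9.76 in control and 11.25, 11.39 and 11.12 with PDGF-BB and rose 2.40-fold (adjusted p = 0.0025, limma). The other eIF2 kinases did not pass: Eif2ak3, of the endoplasmic reticulum, had a log2 change of 0.25 (95% interval 0.06 to 0.44), Eif2ak1, the haem-regulated one, one of -0.01 (-0.18 to 0.15), and Eif2ak4, the amino acid sensor, one of 0.00 (-0.28 to 0.28). The phosphatase subunits that undo the phosphorylation split, with the constitutive Ppp1r15b 1.48-fold higher and the stress-induced Ppp1r15a 1.42-fold lower (adjusted p = 0.0042 and 0.0039, limma). Atf4, the transcription factor translated when eIF2 is phosphorylated, and Trib3, one of its targets, rose 1.32-fold and 1.66-fold.

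**Figure D4:**
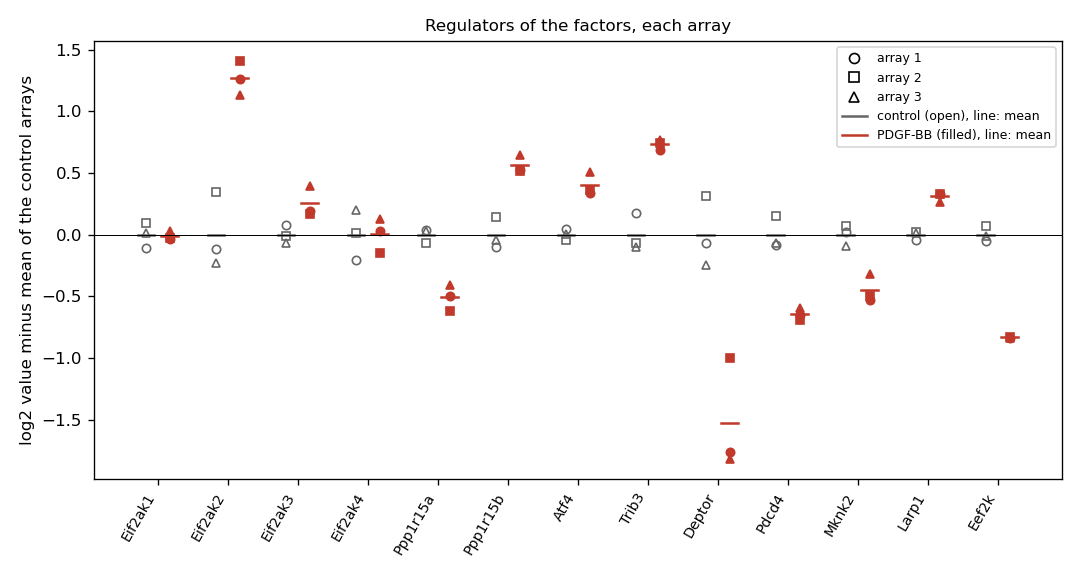
Log2 value of each array minus the mean of the control arrays (y axis) for 13 regulators of the factors (x axis), with symbols as in the plot of called factors and lines for group means. Eif2ak2 stands highest (mean change 1.27) and Deptor lowest (-1.53), and the PDGF-BB arrays of Eef2k coincide at -0.83.

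In the list of mTORC1, S6 kinase and MNK signalling, 4 of 16 genes rose and 4 fell (25% each way, against 15.9% and 16.8% of bright genes). Deptor, an inhibitor bound to mTOR, had the largest change, from 10.57, 10.95 and 10.40 to 8.88, 9.64 and 8.82, and was 2.88-fold lower (adjusted p = 0.0056, limma). Pdcd4, which blocks the helicase eIF4A, averaged 12.06 ± 0.05 under PDGF-BB and 12.71 ± 0.13 in control (SD, n = 3 per group), 1.56-fold lower by limma (adjusted p = 0.0025). Mknk2, a kinase of eIF4E, was 1.37-fold lower. Sesn2, a leucine sensor upstream of mTORC1, rose 1.62-fold, Larp1, which binds messengers of the translation machinery, 1.24-fold, and Mlst8, a subunit of mTOR complexes, 1.31-fold. Sesn1, a relative of Sesn2, went the other way and was 1.44-fold lower (adjusted p = 0.013, limma). Mtor itself had a log2 change of -0.01. With the third control array, or the first or the second PDGF-BB array, left out, 2 genes of the list rose. Mlst8 was among those lost in each case (adjusted p = 0.053 to 0.067).

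Eef2k, the kinase that halts eEF2, had a larger change than any elongation factor, though that difference was not tested. It measured 9.65, 9.78 and 9.69 in control and 8.87, 8.88 and 8.87 with PDGF-BB, and was 1.78-fold lower (log2 change -0.83, SE 0.057, adjusted p = 6e-04, limma). Of 13 genes that regulate or modify elongation factors it was the only one that fell, and 3 rose (30.8% called, against 32.7% of bright genes). With the block Dhps, the first enzyme of hypusine synthesis, passed as higher (0.010). Those were Dph2 and Dph6 (1.49-fold and 1.31-fold), which make the diphthamide residue of eEF2, and Dohh (1.25-fold), the last enzyme of hypusine synthesis on eIF5A. Dohh lost its call on omitting any 1 control array, or the PDGF-BB arrays 2 or 3 (0.078 to 0.12) and with an intensity trend (0.061). Among 16 initiation partners without an Eif name 3 rose and 2 fell (31.2%), a share near that of bright genes, with Abce1, which splits ribosomes for reuse, 1.37-fold higher and Ctif, a partner of the nuclear cap-binding complex, 1.35-fold lower. Denr, which works in reinitiation, and Ncbp1 rose 1.26-fold and 1.25-fold but lost their calls with the block (0.0605 and 0.059), while Mcts2 passed with it (0.032). The partners' count of increases was 1 on omitting array 2 or 3 of either group and 5 without control array 1. That of decreases was 1 on omitting array 1 of either group, control array 3 or PDGF-BB array 2.

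The factors' shift can be set beside that of their nearest partners, as a description. Of 10 measured genes of the multi-synthetase complex and Vars, whose product binds eEF1, 7 rose and none fell in limma (0 lower at an unadjusted p under 0.05), with a median log2 change of 0.41 (70.0% called, against 32.7% of bright genes). With the replicate block 6 rose, Rars losing its call (0.062). Mars1, which shares a contact with the Eef1e1 protein, rose 1.77-fold and Eprs 1.53-fold. The count was 4 on omitting array 2 of either group or control array 3. Of 32 cytosolic ribosomal protein genes 2 rose and 1 fell (9.38% called, against 21.5% of all genes), with a median of -0.03. These are only a part of the family. The name rule for this set also dropped large-subunit genes numbered with a single digit. The ribosomal protein genes counted here thus lay near the median of all genes (-0.02), and the factors' median of 0.12 lay between them and the synthetases.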

How the data were processed

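The values the authors deposited are log2 signals of 21225 probe sets on 6 arrays, made with RMA (background correction, quantile normalization, probe set summary) per the submitters' processing notes. Software, array definition, build and filters are not given in the sources used. RMA gives every array a like distribution, which hides any change in overall RNA content. GEO's platform annotation names 20239 probe sets with 1 symbol each and none with several; 986 (4.65%) are unnamed and entered only an alternative, so factors without a named probe set are not analysed here. Among the unnamed ones are 4 whose IDs are the RefSeq gene numbers of Eif1, Eif2s1, Eif3g and Eif4g1; they have values on the arrays, but the rule takes annotated symbols.

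The fit was limma 3.58.1 (R 4.3.3), lmFit and eBayes on all 6 arrays with the group as factor and no filter, two-sided, checked on simulated data. Errors (SE, 95% interval) come from the moderated fit, and a fold is the log2 change turned back to the linear scale. Arrays give no read depth; their number, 3 per group, limits the precision. The rule named every called factor with its arrays, a fixed set of others, and up to 3 called genes per direction of each list. Sesn1 was named besides, as a relative of Sesn2. Members, lists and complexes were chosen with earlier results of these data known. Same-numbered arrays deviated together (r = 0.25, 0.32 and 0.25 across genes, and -0.28 to 0.01 otherwise), which could reflect pairing, though the labels state none. Deviations within a group cancel, so positive values for same-numbered arrays push the others down. The main calls, errors and intervals come from the fit without a block. Results with the replicate block are given where it changes a call. The other alternatives were repeated quantile normalization, median centring, leaving out genes under the 25th or 50th percentile of mean signal, all probe sets, an intensity trend, and leaving out each array.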

Additional observations from a re-analysis of the deposited data

How the results depend on the processing

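Over the 13 alternatives the 14 called factors gave 182 values, of which 143 stayed past the threshold, 39 missed it and none changed sign; 5 factors kept their calls throughout. The count of higher factors ranged from 4 to 8 when 1 array was left out, and that of lower factors from 3 to 5. With the replicate block 8 factors fell instead of 5 and 12 rose instead of 9, where 12.5% and 10.9% of all named genes did. The block added Eif2s3y, Eif3e, Eif4e3, Eif1a, Eef1g and Eef1akmt3 and changed no other factor's call. Over all named genes the count of calls ranged from 2934 to 4219 with 1 array left out, where fewer samples enter the fit, and was 4741 with the block and 3913 without genes under the 50th percentile. The factors' median log2 change ranged from 0.06 (without control array 3) to 0.14 (without control array 1). With each array centred on its median, 10 factors rose and 4 fell, where 10.8% and 10.7% of all named genes did. Repeated quantile normalization gave 9 higher and 7 lower factors, with 10.4% and 11.8% of all named genes. Changes of under 0.3 log2 units were mostly not resolved with 3 arrays per group, and signals under 7.91 may be background.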

Other observations

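Mitochondria use their own translation factors, and 4 of 11 measured passed the test (36.4%, against 21.5% of all named genes and 32.7% of those above the background level). Of the 11, 2 rose, 2 fell and 8 had changes below 0, with a median log2 change of -0.10. Mrrf, the ribosome recycling factor, measured 11.78 ± 0.02 in control and 11.26 ± 0.11 with PDGF-BB and was 1.43-fold lower (SD, n = 3 each, adjusted p = 0.0034, limma), and Guf1, a back-translocating GTPase, was 1.41-fold lower (adjusted p = 0.011). Tsfm and Gfm1, elongation factors, rose 1.34-fold and 1.30-fold (adjusted p = 0.021 and 0.029), but the count of increases was 0 on omitting array 3 of either group, control array 2 or PDGF-BB array 1. With the replicate block 3 fell, Mtif3, an initiation factor, passing as well (0.045). Tufm, the mitochondrial elongation factor Tu, lay under the background level at 6.28 and 6.27. Of 7 genes of termination and ribosome rescue 2 rose (28.6%, no more than among bright genes), Trmt112, a methyltransferase partner, 1.34-fold (adjusted p = 0.0097, limma) and Etf1, the release factor eRF1, 1.24-fold (adjusted p = 0.046). Only 1 of them passed with repeated quantile normalization, on omitting control array 2, control array 3 or any 1 PDGF-BB array.

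The difference between related factors within an array was examined for 9 pairs, chosen after their values were seen. It separated the groups in 4. Eef1a2 relative to Eef1a1 shifted by -0.23, Eif5a2 relative to Eif5a by -0.51, Eif4a2 relative to Eif4a3 by -1.11 and Eif4ebp2 relative to Eif4ebp1 by -0.40 log2 units. The exact two-sided permutation p was 0.1 for each (n = 3 per group), the smallest that 3 arrays against 3 can give. After Benjamini-Hochberg adjustment over the 9 pairs it was 0.225. No pair could thus have passed the threshold used for genes, and the pairs were chosen on their values. The permutation test therefore decides nothing about them. Eef1a2, Eif5a2, Eif4a2 and Eif4a3 were called on these same arrays, so the separation of their pairs adds no support to the calls. The pairs that did not separate were Eif4e3 and Eif4e2 relative to Eif4e, Eif4ebp3 relative to Eif4ebp1, Eif1a relative to Eif1ax, and Eif4g3 relative to Eif4g2, with shifts from -0.42 to 0.14. That test takes no account of array numbers. Compared by number, Eif4e3 relative to Eif4e differed by -0.62, -0.30 and -0.36, and Eif4ebp3 relative to Eif4ebp1 by -0.02, -0.12 and -0.17, below 0 in each. Eef1a1 lies near the top of the signal range, and saturation of its probes was not tested.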
